A study of Anopheles stephensi with 4 samples.

Results

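The genes described here are the reference genes of Anopheles stephensi, a mosquito that transmits malaria, whose annotated transcript has 15 or more exons. They were found by counting the exons of every annotated transcript in the deposited transcript annotation, and 211 of 12340 reference genes met the limit. Their expression was measured by paired-end RNA sequencing in 4 tissues of sugar-fed adult females reared in the laboratory: fat body, ovary, midgut and Malpighian tubules (called tubules below). Each tissue was represented by 1 library, run on 2 lanes as technical replicates, so every difference below compares libraries, has no replicate check and carries no p-value. No strain, genotype or number of pooled insects is given in the sources used here, and the same rearing applied to all 4 tissues.

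Most insect genes are built of exons separated by introns, which are removed from the RNA by splicing. A gene with many exons offers many places where splicing can vary, and it can also hold internal start and end sites that give shorter transcripts. In Drosophila, genes with many exons include those of large muscle, cell adhesion and ion channel proteins. The fat body stores and secretes nutrients and blood proteins, the ovary makes eggs, the midgut digests, and the Malpighian tubules form urine.

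Identifiers of the deposited files were not paired with gene names, and a reference table of 15394 genes held 0 of them. The many-exon genes are therefore given by identifier and by 1-based position on the scaffolds of the deposited annotation, with no role, and the tissue labels could not be checked against marker genes. The level of a gene is the sum of FPKM (fragments assigned to a transcript, divided by its length in kilobases and scaled to the library) over the annotated transcript and the assembled transcripts that share a splice junction with it or overlap its exons on the same strand. Ranges in parentheses after an FPKM value are sums of the authors' lower and upper bounds, not a spread between samples.

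The libraries held an estimated 36316831 fragments in tubules, 34840907 in fat body, 34830892 in ovary and 27490192 in midgut. The many-exon genes took 3.49% of the fragments in fat body (95% Wilson interval 3.48 to 3.49), 2.48% in ovary (2.48 to 2.49), 1.77% in midgut (1.76 to 1.77) and 3.38% in tubules (3.37 to 3.38). These intervals cover counting error only. The 10 most abundant of them held 71.0% of the many-exon fragments in fat body, 55.8% in midgut, 52.0% in tubules and 36.6% in ovary. At the median length of these genes, 1 FPKM stood for 266 fragments in ovary, 202 in tubules, 157 in fat body and 95.03 in midgut. The deposited FPKM are scaled differently between tissues, and rescaling to the same sum in each tissue (TPM) moved all log2 values by 1.17 in ovary, 0.79 in tubules, 0.12 in fat body and -0.32 in midgut. Detection per tissue, median levels of the many-exon genes, highest tissues, enrichment, pair folds and evenness are given on both scales. Other counts that depend on this scaling are given with deposited FPKM alone.

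The many-exon genes had between 15 and 47 exons, with a median of 17. There were 150 with 15 to 19 exons, 50 with 20 to 29 and 11 with 30 or more. Their annotated transcripts had a median length of 5385 bases (range 1845 to 38163), against 1185.5 bases for all reference genes, and spanned a median of 16509 bases of genome (5028 to 68787). Their exons were no longer than those of other genes: the median exon was 196 bases and the median intron 88 bases, against 212 and 85 bases over all genes. They lay on 87 scaffolds, 108 on the plus and 103 on the minus strand. The lengths of 91.9% of the annotated transcripts were multiples of 3 (88.8% over all genes), so these lengths are mostly coding lengths. The closest neighbours among them were ASTEI03064 and ASTEI03065, 2773 bases apart, and ASTEI03065 and ASTEI03067, 2868 bases apart.

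At 1 FPKM or more, 144 many-exon genes were detected in fat body (68.2%, against 65.8% of all genes), 145 in ovary (68.7%, against 62.8%), 122 in midgut (57.8%, against 59%) and 139 in tubules (65.9%, against 63.1%). These shares lie close to those of all genes. With TPM, 145 were detected in fat body (66.4% of all genes), 154 in ovary (67.4%), 118 in midgut (57.4%) and 149 in tubules (66.9%). The median level over all 211 genes was 4.63 FPKM in fat body, 3.12 FPKM in ovary, 2.42 FPKM in midgut and 3.62 FPKM in tubules. Over all reference genes it was 4.62, 4.92, 3.02 and 4.06 FPKM. The order of the tissues turned with TPM, where the median of the many-exon genes was highest in ovary (7.03 TPM), followed by tubules (6.24), fat body (5.03) and midgut (1.93). Over all genes the TPM medians were 11.1 in ovary, 6.99 in tubules, 5.02 in fat body and 2.42 in midgut. Genes with 10 to 14 exons stood at 5.65, 6.47, 4.40 and 6.62 FPKM, above those with 15 or more in every tissue. At the limit of the rule, the 59 genes with 14 exons had medians of 6.31 FPKM in fat body, 6.64 FPKM in ovary, 5.35 FPKM in midgut and 8.17 FPKM in tubules. The 47 genes with 15 exons had medians of 4.02, 2.74, 0.731 and 3.59 FPKM. Among the 211 genes the number of exons and the mean level were almost unrelated across genes (Spearman's rho 0.05, all values from the same 4 libraries).

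**Figure D1:**
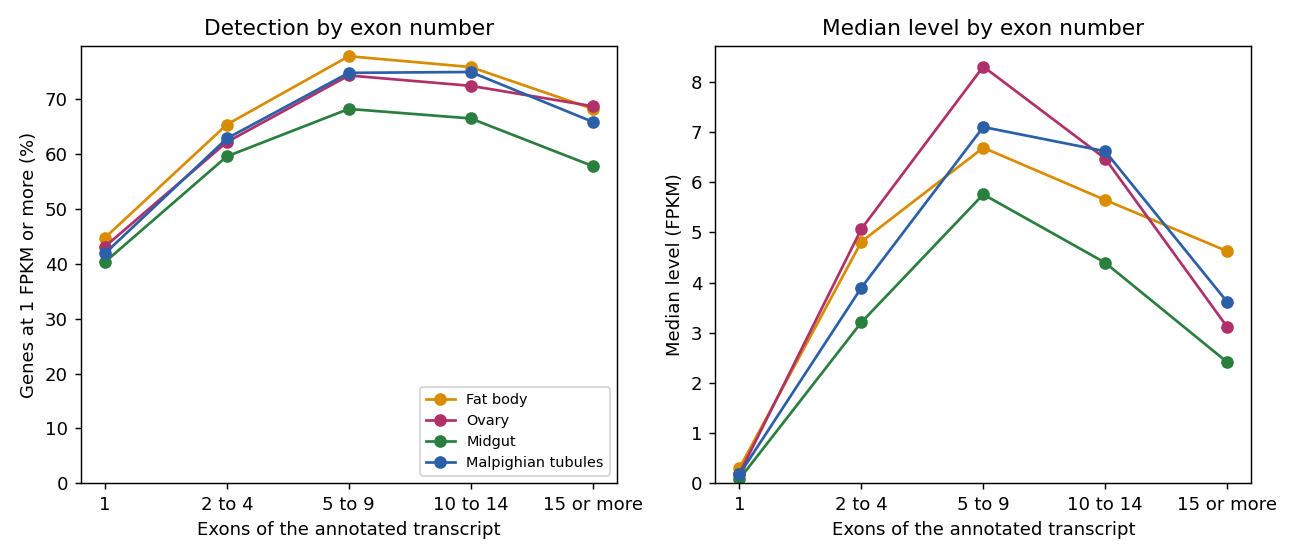
Share of reference genes at 1 FPKM or more (left) and median level in FPKM over all genes (right) by the number of annotated exons, with 1 line per tissue and 1 library per tissue. Both fall from 10 to 14 exons to 15 or more in all 4 tissues, as the median does in ovary from 6.47 to 3.12 FPKM.

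Detection was mostly shared or absent. All 4 tissues expressed 112 of the many-exon genes (53.1%, against 53.8% of all genes), and 44 stayed below 1 FPKM everywhere (20.9%, against 27.7%). The remaining 55 were detected in 3 tissues (15 genes, 7.11%), in 2 (17 genes, 8.06%) or in 1 (23 genes, 10.9%), against 6.30%, 4.57% and 7.69% of all genes. Ovary was the lone tissue for 13 of these, fat body for 8 and tubules for 2. Midgut was the missing tissue for 11 of the 15 genes detected in 3. These splits by tissue were not counted over all genes, where midgut also had the lowest detection (59%). Of the 44 genes below 1 FPKM, 20 still reached 20 fragments in some tissue, 1 had none, and the highest level among them was 0.645 FPKM. None of the 44 had an assembled isoform, while 148 of the 167 detected genes did.

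With deposited FPKM the highest level fell in ovary for 80 many-exon genes, in fat body for 54, in tubules for 43 and in midgut for 33. As shares these were 37.9%, 25.6%, 20.4% and 15.6%, against 32.6%, 21.1%, 13.6% and 22.2% of all genes. With TPM these numbers were 103, 39, 57 and 11, and 41 genes changed their highest tissue. The TPM shares were 48.8%, 18.5%, 27.0% and 5.21%, against 45.9%, 14.8%, 21.9% and 7.03% of all genes. Tissue enrichment was defined as an FPKM + 1 of at least 5 times that of the next tissue together with at least 1 FPKM and 20 fragments. By this rule 21 many-exon genes were enriched (9.95%, against 8.05% of all genes): 10 in fat body (3.44% of all genes), 4 in ovary (1.47%), 4 in midgut (1.98%) and 3 in tubules (1.17%). With TPM there were 30 (11.8% of all genes): 13 in ovary (5.91%), 8 in fat body (2.77%), 8 in tubules (1.73%) and 1 in midgut (1.36%). On both scales the same 16 many-exon genes were enriched in the same tissue. Genes with 10 to 14 exons were enriched more often, 11.4% with FPKM and 16.0% with TPM, against 9.95% and 14.2% of the many-exon genes. These are whole tissues, in which fewer cells of a type and less RNA per cell cannot be told apart.

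**Figure D2:**
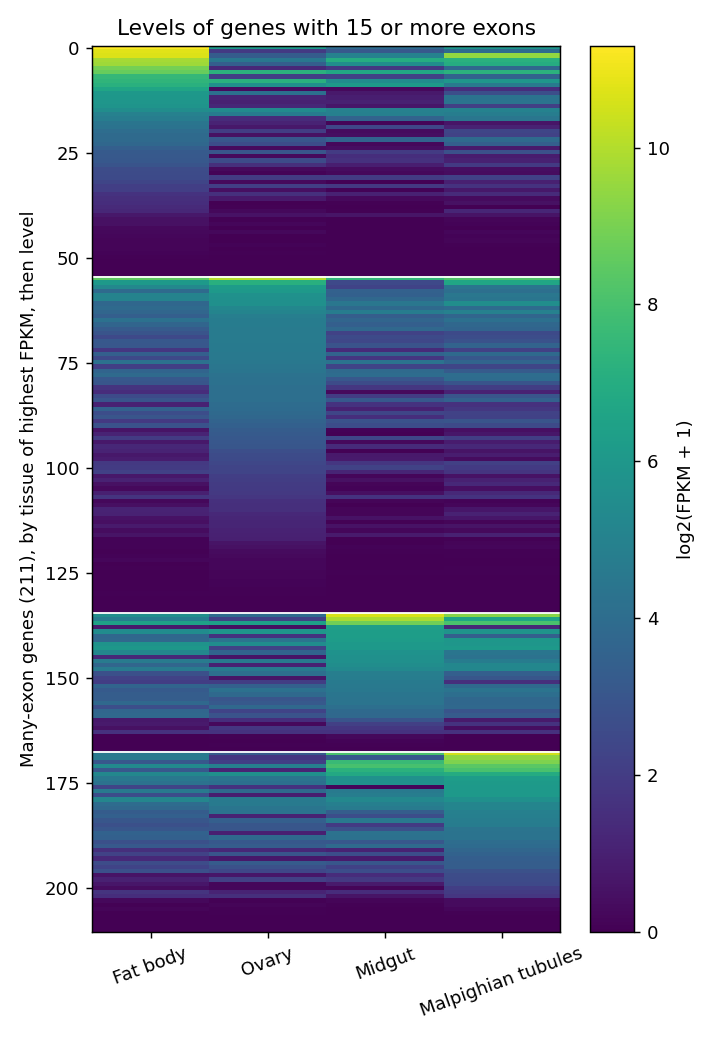
Level of each of the 211 many-exon genes in the 4 tissues, as log2(FPKM + 1), sorted by the tissue of highest FPKM and then by level, with white lines between the blocks. The blocks hold 54 genes for fat body (drawn with the gene that is at 0 throughout), 80 for ovary, 33 for midgut and 43 for tubules.

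By the summed level, fat body held the most abundant of them and the largest ratio to the next tissue among the enriched genes named here. ASTEI09198 (scaffold_00085, 115702 to 143219, minus strand, 15 exons) stood at 2512 FPKM (2399 to 2626) in fat body, 70.1 FPKM in ovary, 14.97 FPKM in midgut and 58.8 FPKM in tubules. It had the highest mean level of the 211 genes, held 24.4% of their fragments in fat body, and was 35.4 times as high there as in the next tissue (17.2 times with TPM, both on the level + 1). ASTEI06317 (scaffold_00039, 291608 to 314309, plus strand, 15 exons) had a level of 1741 FPKM (1697 to 1785) in fat body, 2.74 FPKM in ovary, 7.66 FPKM in midgut and 14.4 FPKM in tubules. It exceeded the next tissue 113-fold (73.4-fold with TPM). With the median over its annotated exons, a measure described further on, this ratio turned to 0.323, with tubules above fat body. The second highest mean belonged to ASTEI05856 (scaffold_00034, 1193495 to 1203103, plus strand, 19 exons), at 1646 FPKM in fat body, 709 FPKM in tubules, 30.3 FPKM in midgut and 8.75 FPKM in ovary. Fat body and tubules were both high for this gene, and it was enriched in no tissue. Of its fat body level, 98.8% came from a transcript of 5 exons and 1194 bases.

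In tubules, ASTEI00428 (scaffold_00002, 1093249 to 1115770, plus strand, 28 exons) reached 1479 FPKM (1442 to 1515) in tubules, 262 FPKM in midgut, 24.2 FPKM in fat body and 7.95 FPKM in ovary. ASTEI01702 (scaffold_00006, 1174279 to 1184211, plus strand, 17 exons) reached 677 FPKM (651 to 702) in tubules, 24.0 FPKM in fat body, 7.56 FPKM in midgut and 2.36 FPKM in ovary. They exceeded the next tissue 5.63-fold and 27.1-fold (12.1-fold and 43.1-fold with TPM). For ASTEI00428 the next tissue was midgut, and for ASTEI01702 fat body. The order of tubules and midgut in ASTEI00428 rests on transcripts over part of the gene: with the median over its annotated exons, a measure described further on, midgut was highest at 253 FPKM and tubules stood at 53.0 FPKM.

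In midgut, ASTEI09434 (scaffold_00092, 425938 to 441625, minus strand, 15 exons) stood at 919 FPKM (893 to 946), against 100 FPKM in tubules, 26.5 FPKM in fat body and 3.36 FPKM in ovary. ASTEI06382 (scaffold_00039, 1182070 to 1196784, minus strand, 24 exons) stood at 79.8 FPKM (70.0 to 89.6), against 1.41 FPKM in tubules, 0.753 FPKM in fat body and 0.328 FPKM in ovary. The ratio of ASTEI06382 was 33.6 (18.9 with TPM). That of ASTEI09434 was 9.10, and with TPM it fell to 4.24, below the limit of 5. The most abundant many-exon gene of the midgut was ASTEI00353 (19 exons, named after its values were seen), at 1570 FPKM in midgut, 630 FPKM in tubules, 47.2 FPKM in fat body and 14.2 FPKM in ovary. It was enriched in no tissue, and nearly all of its midgut level came from a transcript of 3 exons and 691 bases over exons 18 and 19 (ANSTF.318.2). The median over its 19 exons was 0.00782 FPKM in midgut.

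The ovary-enriched genes were far less abundant. ASTEI10281 (scaffold_00122, 117026 to 125708, plus strand, 15 exons) had a level of 23.9 FPKM (17.8 to 30.1) in ovary, 3.43 FPKM in tubules, 2.45 FPKM in fat body and 1.52 FPKM in midgut. ASTEI08628 (scaffold_00072, 520326 to 539057, minus strand, 16 exons) stood at 16.3 FPKM in ovary, 1.71 FPKM in fat body, 1.14 FPKM in tubules and 0.220 FPKM in midgut. Its summed bounds were wide, 4.38 to 28.7 FPKM in ovary and 0.0518 to 4.87 FPKM in fat body, and they overlapped. The ratios were 5.61 and 6.38, and with TPM 7.91 and 12.7. The most abundant many-exon gene of the ovary, ASTEI10069 (18 exons, named after its values were seen), was enriched nowhere: it stood at 1056 FPKM in ovary, 359 FPKM in fat body, 290 FPKM in tubules and 175 FPKM in midgut. A transcript of 3 exons over exons 11 to 14 (ANSTF.9306.4) held 62.3% of its ovary level. With the median over its 18 exons the order turned, to 10.6 FPKM in tubules, 9.85 FPKM in fat body, 1.26 FPKM in midgut and 0.773 FPKM in ovary.

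Pairs of tissues were compared to describe how far the many-exon genes differ between them, counting genes with a fold of at least 4 in FPKM + 1, which understates the change of low genes. Fat body and ovary differed in 39 genes, 28 higher in fat body (9.59% of all genes) and 11 higher in ovary (4.15%). Midgut and tubules differed in the fewest, 19, with 5 higher in midgut (3.4%) and 14 in tubules (4.25%). As shares of the 211 genes these were 13.3% and 5.21%, and 2.37% and 6.64%. Between fat body and midgut 24 were higher in fat body (11.4%, against 7.39% of all genes) and 16 in midgut (7.58%, against 5.22%). Fat body exceeded tubules in 17 (8.06%, against 5.5%) and was exceeded in 13 (6.16%, against 3.82%). Ovary exceeded midgut in 24 (11.4%, against 8.86%) and midgut ovary in 20 (9.48%, against 9.58%). Tubules exceeded ovary in 27 (12.8%, against 8.46%) and ovary tubules in 13 (6.16%, against 5.47%).

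The split between the directions moved by over 10 percentage points with TPM in all 6 pairs. Fat body was then higher than ovary in 22 genes (6.3% of all genes) and ovary than fat body in 44 (17.1%). Ovary exceeded midgut in 59 (24.6%) and midgut ovary in 13 (4.76%). Fat body exceeded midgut in 30 (8.82%) and midgut fat body in 12 (4%). Tubules exceeded fat body in 28 (6.69%), midgut in 33 (10.1%) and ovary in 27 (7.53%). They were exceeded by fat body in 13 (4.31%), by midgut in 3 (1.98%) and by ovary in 27 (10.8%). With either scale, fat body exceeded midgut, ovary exceeded midgut and tubules exceeded midgut in more many-exon genes than the reverse, while the order of fat body and ovary and that of fat body and tubules turned with the scale, and ovary and tubules became equal.

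**Figure D3:**
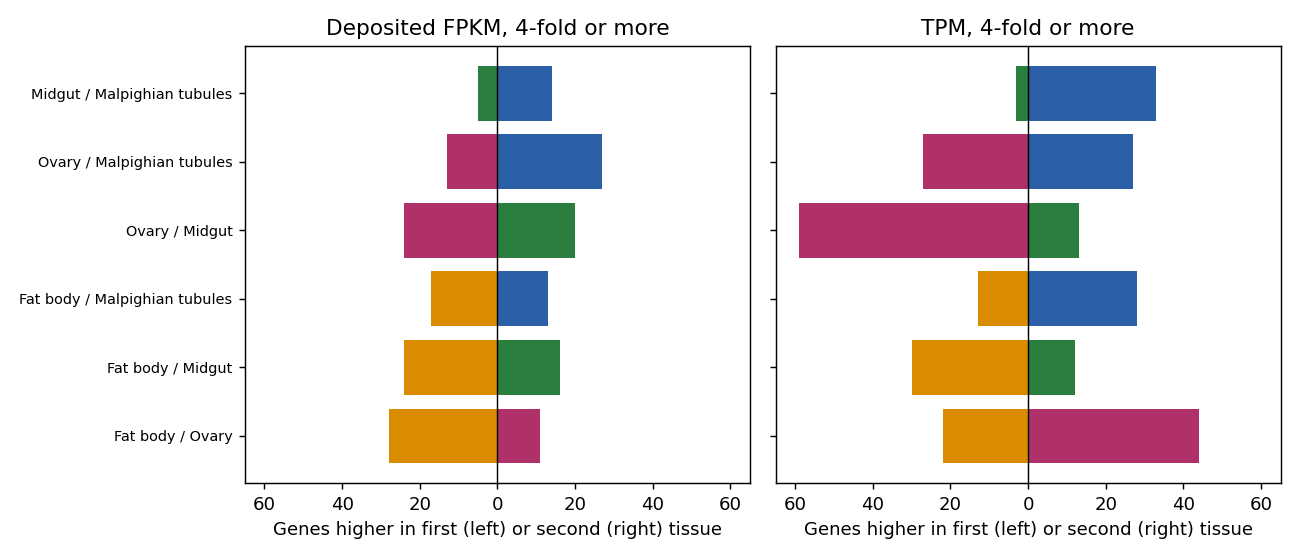
Number of many-exon genes with a fold of 4 or more in level + 1 for each pair of tissues, with deposited FPKM (left) and TPM (right), where bars to the left are genes higher in the tissue named at the left of the label. Between fat body and ovary the bars read 28 and 11 with FPKM, and 22 and 44 with TPM.

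What the summed level of a many-exon gene consists of was examined next, because several of the most abundant genes owed their level to short transcripts. The main isoform is the transcript with the largest share of the gene's FPKM in the tissue of highest level. It kept fewer than 50% of the annotated introns in 64 of the 167 detected genes. The share rose with the level: 12 of 57 genes between 1 and 10 FPKM (21.1%), 34 of 89 between 10 and 100 FPKM (38.2%) and 18 of 21 at 100 FPKM or more (85.7%). At 100 FPKM or more the same held for 26 of 53 genes with 10 to 14 exons (49.1%), 59 of 427 with 5 to 9 (13.8%) and 75 of 995 with 2 to 4 (7.54%). The 64 short main isoforms overlapped a median of 6 exons of gene models with a median of 18, and had a median length of 3550.5 bases. Of these, 34 reached the last annotated exon and not the first, 11 the first and not the last, 1 both, and 18 neither.

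**Figure D4:**
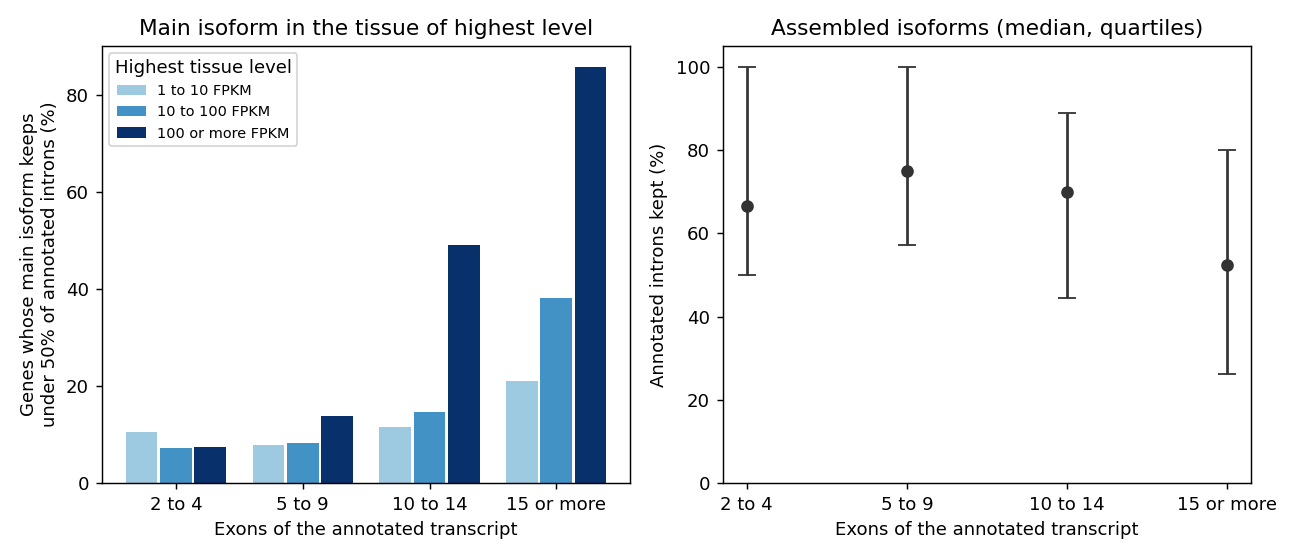
Left, share of detected genes whose main isoform keeps under 50% of the annotated introns, by exon number and by highest level in FPKM; right, share of annotated introns kept by each assembled isoform, as the median (point) and quartiles (bars). The bar for 15 or more exons at 100 FPKM or more stands at 85.7%, and the median isoform of these genes keeps 52.5% of the introns.

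A second measure of level was therefore taken, chosen after seeing the data: the transcripts that overlap each annotated exon were summed, and the median over the exons was used. For the 21 genes at 100 FPKM or more, this level had a median of 11.8% of the plain sum, and it was under 10% of it in 10 of them. At lower levels both measures coincided for the median gene. The median was 100% for the genes between 10 and 100 FPKM and for those between 1 and 10 FPKM. It was also 100% for all 167 detected genes, of which 23 were under 10%. Tissue by tissue, this level was under 50% of the sum for 31.9% of the detected many-exon genes in fat body and 26.2% in ovary. The shares were 30.3% in midgut and 28.8% in tubules, against 3.20% to 3.36% of all genes with 2 or more exons. Of the 21 genes, 9 remained at 100 FPKM in the tissue of the highest sum, and 10 in any tissue. Of the 21 tissue-enriched genes, 13 remained enriched. The clearest case was ASTEI06317, in which a transcript of 3 exons and 804 bases (ANSTF.5891.2) held 99.9% of the fat body level. It lies over the annotated exons 7 and 8, at 1738 FPKM (1695 to 1781) in fat body, whereas the full annotated transcript stood at 2.34 FPKM in fat body, 0.105 FPKM in ovary, 0.339 FPKM in midgut and 9.33 FPKM in tubules. Over its other 13 exons the gene was thus highest in tubules.

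ASTEI05856 owed 98.8% of its fat body level to a transcript of 5 exons and 1194 bases over the annotated exons 1 to 3 (ANSTF.5452.1). This transcript stood at 1626 FPKM in fat body and 688 FPKM in tubules, and the median over the 19 annotated exons was 14.6 and 17.97 FPKM. ASTEI06382 was enriched in midgut through a transcript of 3 exons over the annotated exons 21 to 24 (ANSTF.5961.1, 76.9 FPKM, 96.4% of the gene), and the annotated transcript stood at 2.90 FPKM there. In ASTEI09434 the isoform over exons 1 to 6 (ANSTF.8718.6) made up 85.7% of the midgut level, at 788 FPKM. The median over its 15 exons was 132 FPKM in midgut, 41.8 FPKM in tubules, 19.3 FPKM in fat body and 1.11 FPKM in ovary, so the midgut stayed highest with a smaller ratio, 3.10.

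ASTEI09198 and ASTEI01702 kept their enrichment by the median over the exons. The median over the exons of ASTEI09198 was 1432 FPKM in fat body, 26.8 FPKM in ovary, 8.48 FPKM in midgut and 31.4 FPKM in tubules. Its annotated transcript alone stood at 679 FPKM in fat body, 27.0% of the gene, and a transcript of 5 exons at the 5' end (ANSTF.8487.6) at 984 FPKM. ASTEI01702 was covered by 3 assembled transcripts that do not overlap, spanning exons 1 to 6, 7 to 12 and 13 to 17. In tubules they stood at 112, 436 and 128 FPKM, and each was higher there than in any other tissue. The annotated transcript of 17 exons stood at 0.884 FPKM. It alone covers exon 2, where the other tissues had 0.321 FPKM (fat body), 0.115 FPKM (midgut) and 2.22e-05 FPKM (ovary), all under 1 FPKM.

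**Figure D5:**
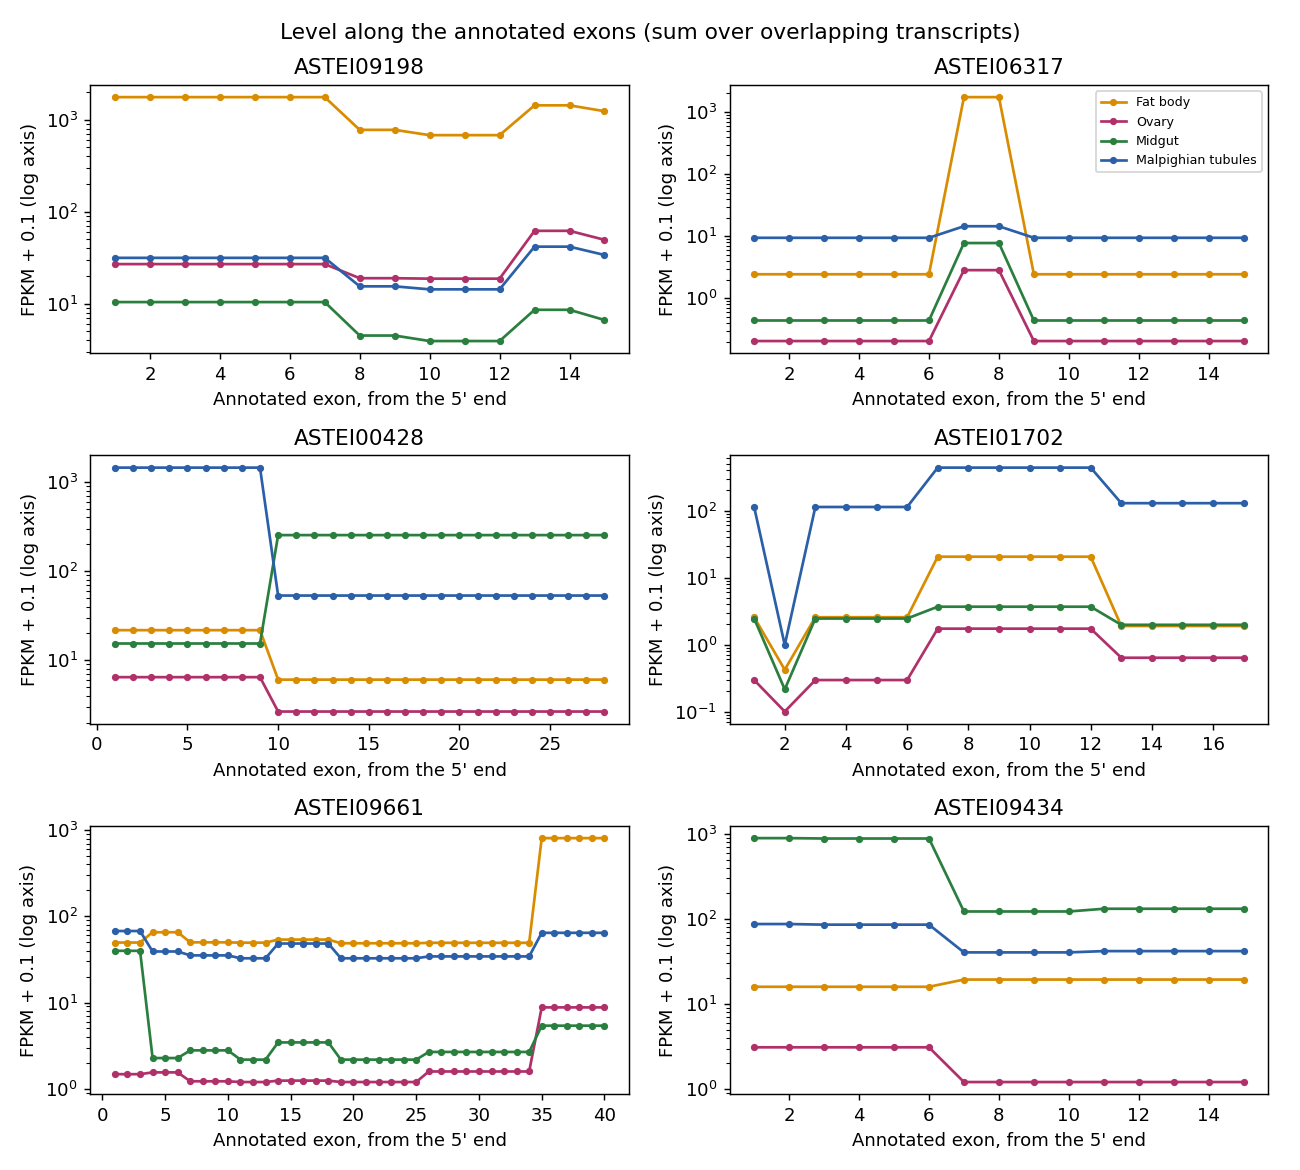
Summed FPKM of the transcripts that overlap each annotated exon, numbered from the 5' end, for 6 many-exon genes in the 4 tissues (log axis, 0.1 FPKM added). ASTEI06317 is high in fat body at exons 7 and 8 alone, ASTEI00428 passes from tubules at exons 1 to 9 to midgut from exon 10 on, and ASTEI09198 and ASTEI01702 are highest in 1 tissue throughout.

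Over all many-exon genes, isoforms that keep at least 50% of the annotated introns carried 19.9% of the summed FPKM in fat body, 27.2% in tubules, 31.0% in midgut and 39.9% in ovary. For all reference genes with 2 or more exons the shares were 83.2%, 88.4%, 87.1% and 87.3%. These are shares of a sum that a few abundant genes dominate. Taken gene by gene, among genes at 1 FPKM or more, the median share was 83.5% in fat body, 94.7% in tubules, 88.1% in midgut and 98.2% in ovary, and over all genes 100% in each tissue. Such isoforms held 50% or more of the level in 57.6% of the many-exon genes in fat body (83 genes), 61.2% in tubules (85), 59.8% in midgut (73) and 65.5% in ovary (95), against between 90.1% and 90.8% of all genes. The annotated transcript itself had a median share of 1.24% of the gene in tubules, 1.29% in fat body, 1.95% in midgut and 3.78% in ovary, among genes at 1 FPKM or more. For all genes it was 51.8%, 56.0%, 58.1% and 54.2%. It held 90% or more of the level in 8 many-exon genes in midgut (6.56%) and in 14 in each of the other tissues (9.66% to 10.1%). Over all genes this share lay between 41.6% and 42.9%.

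The assembly contained 490 isoforms of the many-exon genes besides the annotated transcripts. At least 1 was present for 148 genes (70.1%, against 41.1% of all genes), and 5 or more for 39 (18.5%, against 2.67%). For genes with 10 to 14 exons these shares were 73.5% and 14.1%. More isoforms were assembled for abundant genes: across the 211 genes the mean level and the number of assembled isoforms had a Spearman's rho of 0.73, and both come from the same reads. Within a band of 5 to 20 FPKM, 61 many-exon genes had a mean of 3.64 assembled isoforms, against 1.14 over all 3149 genes of that level and 2.42 for those with 10 to 14 exons. In the other bands the many-exon genes were not always ahead of those with 10 to 14 exons: the means were 1.38 and 1.26 between 1 and 5 FPKM, 4.03 (33 genes) and 4.20 between 20 and 100 FPKM, and 4.18 (17 genes) and 5.03 at 100 FPKM or more. Of the 490 isoforms, 26 kept every annotated intron (5.31%, against 33.0% over all genes with 2 or more exons), and 295 started or ended inside the annotated model (60.2%, against 18.03%), 59 of them at both ends.

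An isoform was called expressed at 1 FPKM and 10% of its gene. With this rule, 2 or more expressed isoforms were found for 78 many-exon genes in ovary (37.0%, against 24.3% of all genes), 68 in fat body (32.2%, against 22.1%), 68 in tubules (32.2%, against 22.2%) and 52 in midgut (24.6%, against 20.3%). The largest number expressed in a tissue was 5, in ovary and tubules, and 4 in fat body and midgut. Genes with 10 to 14 exons reached higher shares, 45.9% in ovary and between 36.9% and 41.4% in the other tissues.

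ASTEI08793 (scaffold_00075, 789136 to 806509, minus strand, 17 exons) had the most assembled isoforms, 13. It stood at 33.9 FPKM in tubules, 24.9 FPKM in midgut, 20.1 FPKM in ovary and 12.9 FPKM in fat body. This was a range of 2.62-fold (4.16-fold with TPM), and the leading isoform did not stay the same. In fat body ANSTF.8117.14 held 51.7%, and in ovary the annotated transcript held 35.4%, while ANSTF.8117.13 held 32.9% in midgut and ANSTF.8117.9 held 24.6% in tubules. In tubules ANSTF.8117.13 held 24.3%, and its bounds (5.89 to 10.6 FPKM) overlapped those of ANSTF.8117.9 (6.60 to 10.1 FPKM), so the 2 could not be ordered there. The annotated transcript was listed at 0 in fat body. All 13 isoforms begin upstream of the annotated start.

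ASTEI03077 (scaffold_00013, 583599 to 621092, minus strand, 19 exons) had 12. It stood at 74.6 FPKM in tubules, 51.7 FPKM in midgut, 22.1 FPKM in fat body and 19.5 FPKM in ovary. ANSTF.2881.3 led in tubules (39.5%), fat body (34.2%) and midgut (31.9%) but held 1.16% in ovary, where ANSTF.2881.5 held 36.6%. In the other tissues ANSTF.2881.5 held 1.14% (fat body), 0.756% (midgut) and 0.429% (tubules). The bounds of ANSTF.2881.5 were 5.91 to 8.35 FPKM in ovary and reached at most 0.817 FPKM elsewhere.

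A main isoform changed when a gene had at least 5 FPKM in both tissues of a pair and each tissue had its own isoform with 60% or more of the level. This was found for 12 many-exon genes (5.69%, against 2.08% of all genes and 6.49% of those with 10 to 14 exons). Ovary and midgut differed in 7 of them, fat body and midgut in 5, and no pair in fewer than 3. In 5 of the 12 the isoforms that replaced each other did not overlap on the scaffold: ASTEI00428, ASTEI09661, ASTEI00317, ASTEI02024 and ASTEI04775. Over all genes this was so for 20 of 257 (7.78%), and for 7 of 36 with 10 to 14 exons (19.4%). For these 5 genes the change is between stretches of the gene that do not overlap and not between splice forms of the same stretch.

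ASTEI00428 showed it most clearly. In tubules ANSTF.386.1, over exons 1 to 9, stood at 1425 FPKM (1395 to 1456) and held 96.4% of the gene. In midgut ANSTF.386.3, downstream of it, stood at 247 FPKM (241 to 253) and held 94.2%. ANSTF.386.1 reached 9.02 FPKM in midgut, and ANSTF.386.3 reached 33.4 FPKM in tubules. In fat body and ovary the upstream transcript was also the larger, at 18.3 and 5.39 FPKM against 2.60 and 1.59 FPKM. With the median over the exons the highest tissue of the gene is midgut (253 FPKM), not tubules (53.0 FPKM).

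ASTEI09661 (scaffold_00100, 190355 to 248632, minus strand, 40 exons) stood at 834 FPKM (806 to 862) in fat body, 126 FPKM in tubules, 45.4 FPKM in midgut and 9.77 FPKM in ovary. ANSTF.8925.1, over exons 35 to 40, held 91.2% in fat body (760 FPKM) and 77.6% in ovary (7.58 FPKM). ANSTF.8925.10, at the opposite end, held 82.9% in midgut (37.6 FPKM) and 0.112% in fat body. In tubules neither led: they held 25.3% and 27.8%, and the annotated transcript 25.8%. The fat body ratio of 6.58 for this gene fell to 4.16 with TPM, below the limit of 5, and to 1.40 with the median over the exons.

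Differences from the annotated exon chain were also frequent. Among the 490 assembled isoforms, 61.2% had a shifted splice site (32.0% over the assembled isoforms of all genes), 38.6% skipped an annotated exon (11.6%), 30.8% had an extra exon inside an annotated intron (10.2%) and 23.5% retained an intron (14.5%). Exons before the annotated start were found in 42.0%, fewer than over all genes (67.9%), and exons after the annotated end in 11.0% (18.2%). Isoforms of many-exon genes have more introns in which an event can occur, so these shares are per isoform and not per intron. Per internal exon, 183 of 3570 (5.13%) were skipped by at least 10% of the transcripts that span them in some tissue, in 53 genes. The shares were 4.17% for genes with 10 to 14 exons, 2.31% with 5 to 9 and 0.814% with 2 to 4. Skipping at this level was found for 136 exons in tubules, 100 in ovary, 99 in fat body and 84 in midgut. These lay in 41, 38, 35 and 32 genes. For a call, the transcripts that span an exon had to sum to 5 FPKM in the tissue. Some of the 183 exons were left out by nearly all of the spanning FPKM in every tissue, such as exons 9 and 10 of ASTEI05793 (99.5% to 99.97%). Such calls are differences from the annotated model that were alike in the 4 tissues, and how many exons are of this kind was not counted. Some exons were left out together by 1 isoform, such as exons 2 to 11, 13 and 14 of ASTEI04525, called in tubules alone (88.7%). Exon 12 of this gene, which has 15 exons, was left out by 2 isoforms (99.0%). Of the 183 exons, 92 (50.3%) had a length that is a multiple of 3, against 41.0% of all internal exons of these genes.

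Skipping differed by 30 percentage points or more between tissues for 32 exons in 14 genes. This was 0.896% of the internal exons, against 0.803% for genes with 10 to 14 exons, 0.573% with 5 to 9 and 0.0740% with 2 to 4. Exon 12 of ASTEI03077, of 387 bases, was skipped by 88.4% of the spanning FPKM in fat body, 74.9% in tubules, 53.5% in midgut and 20.8% in ovary. The other examples were picked after their values were seen. Exon 3 of ASTEI04459, of 222 bases, was skipped by 66.2% in ovary, 12.8% in tubules, 6.42% in fat body and 0.00618% in midgut. Exon 19 of ASTEI06644 was skipped by 31.6% in tubules, 36.2% in midgut, 68.1% in ovary and 89.8% in fat body, and its neighbours 18 and 20 to 22 followed the same order. The isoforms behind this differed. An isoform that leaves out all of exons 10 to 23 held 45.0 of the 45.4 FPKM that skipped exon 19 in midgut. It held 36.1 of 45.5 FPKM in tubules, 0.851 of 13.9 FPKM in ovary and 17.9 of 750 FPKM in fat body.

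The 2 genes with the most exons were not abundant, while ASTEI09661, with 40 exons, reached 834 FPKM in fat body. ASTEI03953 (scaffold_00019, 466625 to 518980, minus strand, 47 exons, 30276 bases) stood at 4.16 FPKM (3.74 to 4.58) in fat body, 0.993 FPKM in tubules, 0.226 FPKM in ovary and 0.0606 FPKM in midgut. It had no assembled isoform, so all its fragments, 4230 in fat body and 37 in midgut, were assigned to the annotated transcript. Whether they cover all 47 exons was not tested. ASTEI08999 (scaffold_00080, 260954 to 286795, minus strand, 44 exons) stood at 3.12 FPKM in ovary, 1.10 FPKM in fat body, 1.05 FPKM in tubules and 0.425 FPKM in midgut. An isoform over its last 8 exons held between 96.3% and 99.3% of these levels.

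At 10 FPKM or more in every tissue stood 33 many-exon genes (15.6%, against 23.5% of all genes). Of these, 7 varied by less than 2-fold between the highest and the lowest tissue (21.2%, against 28.6% of all genes at that level), and 4 with TPM (12.1%, against 16.3%). The most even in FPKM was ASTEI07918 (scaffold_00060, 287423 to 297372, plus strand, 15 exons), at 30.05 FPKM in fat body, 29.2 FPKM in midgut, 26.4 FPKM in tubules and 25.6 FPKM in ovary, a range of 1.18-fold. With TPM its range was 2.46-fold, from 23.4 TPM in midgut to 57.6 TPM in ovary. Between 98.3% and 99.0% of that came from a transcript of 4 exons and 875 bases over exons 1 to 3, and the annotated chain of 15 exons lay between 0.258 and 0.489 FPKM. ASTEI06376 (scaffold_00039, 1041999 to 1067753, plus strand, 20 exons) followed, at 17.99 FPKM in ovary, 15.4 FPKM in tubules, 15.02 FPKM in midgut and 13.99 FPKM in fat body, a range of 1.29-fold that became 3.37-fold with TPM. The isoforms behind this even sum differed: ANSTF.5951.1 held 57.6% in ovary and 9.03% in fat body, while ANSTF.5951.7 held 18.9% in ovary and 69.0% in fat body.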

How the data were processed

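Paired-end RNA-seq of 4 tissues, 1 library each, was analysed from the authors' tables. The submitters' processing notes name HISAT2, Cuffdiff, StringTie 1.2.1 and CASAVA 1.8. Genome build, aligner settings and use of strand are not given in the sources used here, so overlapping genes and antisense transcripts cannot be told apart with confidence. The authors deposited FPKM values with bounds for 25785 transcripts, per the file headers, and an estimated fragment signal per transcript that is not whole numbers. The deposited signal was divided by its per-lane steps, the smallest values shared by 50 or more transcripts, to estimate fragments. Exons and class codes came from the deposited annotation of 25794 transcripts. The FPKM table's own class column was blank.

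Gene levels summed FPKM over classes =, j, o and e in Python 3.11.15 with pandas 2.3.3, numpy 2.4.6 and scipy 1.17.1. TPM rescaled each tissue's sum. Folds used FPKM + 1. No count model was fitted, since each tissue had 1 library, and 25 of the many-exon genes share an assembled gene with another reference gene. The structural comparison, the enrichment call, the main-isoform change and the per-lane steps were tested on made-up or simulated data. The other calculations were not tested in this way. Genes were named by rule: per tissue the 2 enriched genes with the highest FPKM, and the 2 with the most exons, the highest mean, the most assembled isoforms, the most even level and the largest isoform change. The genes and rules were chosen with earlier results of these data known. Alternatives changed thresholds, pseudocount, scaling, exon limit and the transcripts summed.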

Additional observations from a re-analysis of the deposited data

Results flagged for a closer look

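Some transcripts that name many-exon genes lie outside the sums above, on the opposite strand (11 transcripts), inside introns (7) or just past the gene end (8). The most abundant of each group is given here, picked for its level. On the opposite strand this was ANSTF.8489.1, which names ASTEI09198, at 76.0 FPKM in fat body, 0.286 FPKM in ovary, 0.248 FPKM in midgut and 1.15 FPKM in tubules. Inside introns it was ANSTF.4250.1, a transcript of 1 exon that names ASTEI04543, at 251 FPKM in ovary, 17.7 FPKM in fat body, 16.1 FPKM in tubules and 1.93 FPKM in midgut. Past a gene end it was ANSTF.9483.1, which names ASTEI10252, at 48.3 FPKM in tubules, 7.02 FPKM in fat body, 4.05 FPKM in ovary and 2.61 FPKM in midgut. ASTEI09198 also has an intron transcript, ANSTF.8488.1, at 231 FPKM in fat body and at most 4.19 FPKM elsewhere.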

How the results depend on the processing

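Over 38 results and 21 settings, 139 of 225 values stayed within 1.5 times or within their interval and 86 moved. The ratios of the 8 named enriched genes were followed besides. An exon limit of 12 moved none. All percentages here are of the many-exon genes. Tissues are in the order fat body, ovary, midgut and Malpighian tubules where 4 values are given.

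Detection was 84.4%, 83.4%, 73.9% and 82.0% at 0.1 FPKM (72.5% in all 4 tissues), and 48.8%, 42.7%, 38.9% and 46.4% at 5 FPKM (28.4%). With annotated transcripts alone it was 20.9%, 21.3%, 15.2% and 19.4% (9.0% in all 4), medians were 0.0841, 0.108, 0.0523 and 0.0676 FPKM, and enriched genes were 0.474% in ovary, 0.0% in midgut and 0.474% in tubules. With the median over the annotated exons, chosen after seeing the data, detection was 60.2%, 59.7%, 48.8% and 57.8% (41.7% in all 4), medians were 2.25, 1.57, 0.924 and 1.87 FPKM, 0.474% were enriched in midgut and 5.69% were higher in midgut than ovary. The ratio of ASTEI06317 to the next tissue turned to 0.323 under both of these, that of ASTEI09434 to 0.107 with annotated transcripts alone, and that of ASTEI00428 to 0.213 with the median over the exons.

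TPM gave an ovary median of 7.03, highest-tissue shares of 18.5%, 48.8%, 5.21% and 27.0%, and enriched shares of 6.16% in ovary and 0.474% in midgut. It moved pair shares to 20.9% (ovary over fat body), 13.3% (tubules over fat body), 28.0% (ovary over midgut), 6.16% (midgut over ovary), 12.8% (ovary over tubules) and 15.6% (tubules over midgut). A limit of 20 exons gave a highest tissue of fat body for 32.8% and of tubules for 9.84%, enrichment in fat body for 9.84%, fat body over midgut for 16.4%, midgut over ovary for 14.8% and ovary over midgut for 11.5%, the reverse of their order at 15 exons, and several isoforms in tubules for 26.2%.

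A ratio of 2 enriched 11.8% in fat body, 13.3% in ovary and 6.64% in tubules, and a ratio of 10 enriched 0.0% in ovary and 0.474% in midgut. A pseudocount of 0.1 FPKM enriched 5.69% in ovary and gave pair shares of 10.4% (ovary over fat body), 17.5% (fat body over midgut), 19.9% (ovary over midgut), 10.9% (ovary over tubules) and 11.8% (tubules over midgut). A fold of 2 gave 20.9% and 21.3% (fat body and ovary), 22.3% and 13.3% (fat body and midgut), 25.6% and 18% (ovary and midgut), 13.7% and 18% (fat body and tubules), 19.9% and 20.4% (ovary and tubules), and 6.16% and 18% (midgut and tubules). Genes with several isoforms made up 25.1%, 26.1%, 17.5% and 25.1% when an isoform needed 20% of its gene, and 12.3%, 11.8%, 8.53% and 14.2% when it needed 5 FPKM. Main isoforms changed in 10.9% at a share of 50%, 1.9% at 80%, and 2.84% at a gene level of 20 FPKM. Apart from fewer genes passing a stricter limit, the causes were not tested.

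No paired analysis was possible because each tissue had 1 library, and no library could be left out for the same reason. Below 1 FPKM, 31 of 67 many-exon genes in fat body, 35 of 66 in ovary, 24 of 89 in midgut and 34 of 72 in tubules still had 20 fragments, so 1 FPKM is not the limit of depth for these long genes.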
